A study of Bos taurus with 96 samples.

Results

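The 3 genes described are those of the fibrinogen chains, FGA (Aα chain, ENSBTAG00000001638), FGB (Bβ chain, ENSBTAG00000022120) and FGG (γ chain, ENSBTAG00000006745). They were taken by their Ensembl identifiers as 3 of the 24616 genes in the count files, so no measured value entered their choice. The counts came from biopsies of liver and of semitendinosus muscle, a muscle of the hind leg, of 16 Holstein cows. Of these, 8 had good genetic merit for fertility (Fert+) and 8 had poor genetic merit for fertility (Fert-), with similar merit for milk production, and all were managed as 1 herd. No cow was treated and there was no control line, so every comparison is between the genetic groups or between stages of the same cows. Each cow was sampled in late pregnancy (LP), in early lactation (EL, the day after calving) and in mid lactation (ML), giving 96 libraries, 16 for each tissue and time-point. Merit was an estimated breeding value for the interval between calvings, so no single allele separates the groups, and each group mixed cows of first and second parity.

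Fibrinogen is the soluble plasma protein that thrombin turns into fibrin, the mesh of a blood clot. It is a dimer in which each side holds an Aα, a Bβ and a γ chain, it is assembled in the endoplasmic reticulum of hepatocytes, and those cells secrete it into the blood. It is also a positive acute phase protein: hepatocytes transcribe the chain genes more in response to interleukin 6, and plasma fibrinogen is used in cattle as a marker of inflammation. In the RefSeq order of genes on the ARS-UCD2.0 assembly the chain genes are direct neighbours, with FGA between FGG and FGB.

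The liver libraries held between 14966847 and 26358063 read pairs assigned to genes, and the muscle libraries between 15279337 and 22018740. The labelled tissues carried their defining transcripts. The 12 liver plasma protein markers summed to 41121 to 233004 CPM in liver and to 1.86 to 188 CPM in muscle. The skeletal muscle markers summed to 33431 to 304332 CPM in muscle and to at most 2.77 CPM in liver. Counts of 19 genes that are near 0 in most libraries were high in 13 libraries, 8 of liver and 5 of muscle, which are called counting batch B here. The name is only a handle: no label gives a batch, the set was defined from these counts, and its cause was not tested. Results on the chains are given with and without these libraries where they differ. CPM are read pairs of a gene scaled to the library total, after the TMM method of edgeR, which corrects each library total for the share taken by a few abundant genes.

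In liver the chain genes together took a median of 5.31% of all read pairs assigned to genes at LP, 9.59% at EL and 4.35% at ML. The range over cows was 3.71% to 15.02% at LP, 3.87% to 21.4% at EL and 2.74% to 10.9% at ML. Because these are bulk samples, fewer hepatocytes and less chain RNA per hepatocyte cannot be told apart.

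FGA, which carries the peptide that thrombin removes first, had 10945 CPM in its lowest LP library, a median of 16162 and 52375 in its highest. At EL the lowest, median and highest values were 11377, 29281 and 77505 CPM. At ML they were 6854, 13130 and 39138 CPM. The ranges of the 3 time-points overlapped, and the median at EL lay above 14 of the 16 LP libraries and 15 of the 16 ML libraries.

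FGB, the Bβ chain gene, ran from 15957 to 71971 CPM at LP with a median of 21667. It ran from 15121 to 112230 CPM at EL with a median of 37974, and from 9604 to 59078 CPM at ML with a median of 18248. FGG, whose chain carries binding sites for platelets and for factor XIII, ran from 10273 to 56043 CPM at LP, from 10686 to 77105 CPM at EL and from 6786 to 39704 CPM at ML, with medians of 15895, 30023 and 11960 CPM. The spread between cows was wide at every time-point, with an SD of 53.0% to 67.6% of the mean over the chains.

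A few cows held the top of these ranges, and the highest pair of cows was the same for each chain at each time-point. At LP cow 426 (Fert-) had 52375 CPM of FGA and cow 430 (Fert+) had 39907, while the other 14 cows lay between 10945 and 18957. At EL cow 164 (Fert-) had 77505 CPM and cow 3847 (Fert+) had 58707, and cow 3434 (Fert+) was lowest with 11377. At ML cow 996 (Fert-) had 39138 CPM, followed by cow 782 (Fert+) with 25415.

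**Figure D1:**
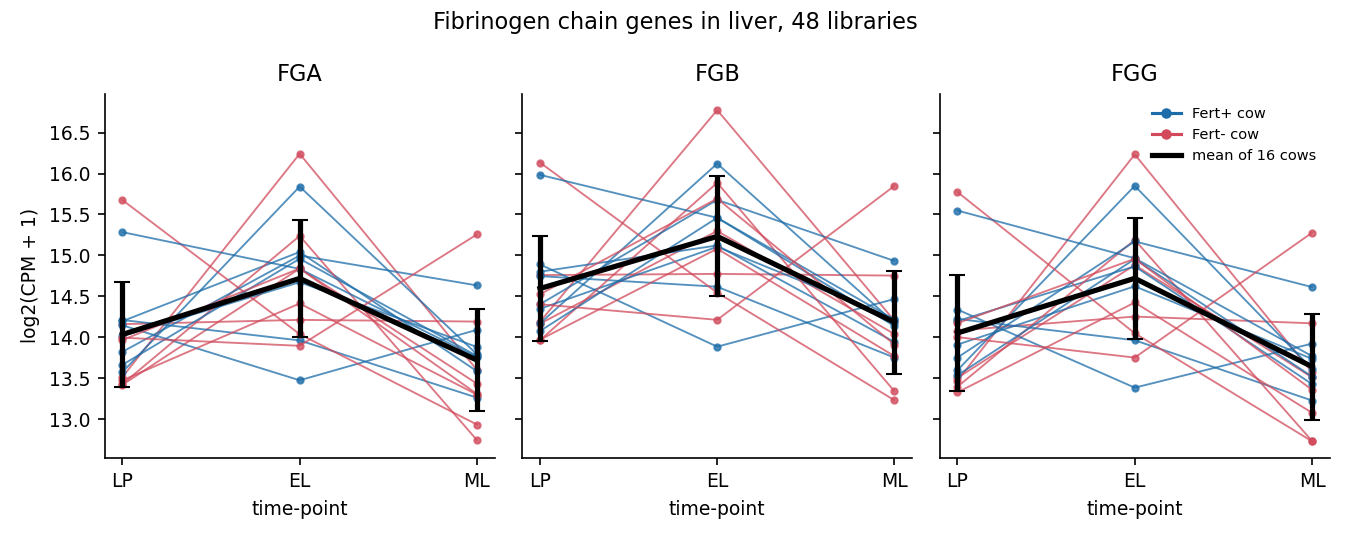
Level of FGA, FGB and FGG in liver as log2(CPM + 1) on the vertical axis at LP, EL and ML, with 1 line per cow coloured by genotype, and the mean of the 16 cows with its SD in black. The mean line peaks at EL in each panel, while cows 426 and 430 start high at LP and cow 996 ends high at ML.

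The first question of the time course was whether the chains changed over calving, from LP to EL. The log2 fold change was 0.70 for FGA (SE 0.25), 0.65 for FGB (SE 0.25) and 0.65 for FGG (SE 0.27). None passed the threshold of edgeR's quasi-likelihood test, with Benjamini-Hochberg adjusted p of 0.105, 0.134 and 0.157, in a comparison that called 448 of 13815 genes (3.24%), 2.27% higher and 0.977% lower at EL. That is 313 higher and 135 lower, and with the cow as a replicate block the balance turned, to 144 higher and 188 lower. FGA was higher at EL in 11 of 16 cows and lower in 5, with folds from 0.321 in cow 426 to 6.63 in cow 164. The exact two-sided sign-flip permutation test over the 16 within-cow differences gave p = 0.031 for FGA, 0.044 for FGB and 0.044 for FGG, without adjustment. The result turned on cow 426: without its libraries the log2 fold changes were 0.96, 0.90 and 0.93, with edgeR adjusted p of 0.0073, 0.013 and 0.014, and 1086 genes were called. Without cow 164 they were 0.49, 0.46 and 0.44, and 5 genes were called. Without counting batch B, 0 genes were called by edgeR (1780 at an unadjusted p under 0.05), and FGA had a log2 fold change of 0.57 (SE 0.28, adjusted p = 0.381).

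From EL to ML the chains fell in liver. The log2 fold change was -1.03 for FGA (SE 0.25, edgeR adjusted p = 0.0014), -1.08 for FGB (SE 0.25, adjusted p = 0.00099) and -1.11 for FGG (SE 0.27, adjusted p = 0.0013). The comparison called 5281 of 13815 genes (38.2%), 18.1% higher and 2784 of them lower at ML (20.2%), so 3 of 3 chains called stands against a background in which a call was common. FGA was lower at ML in 14 of 16 cows. The exceptions were cow 3434, whose EL library had the lowest FGA level of that time-point, and cow 996, with folds of 1.53 and 2.57. The fold was 0.501 for FGA, 0.483 for FGB and 0.473 for FGG as the geometric mean over cows, and the exact sign-flip permutation test gave p = 0.0025, 0.0028 and 0.0020. The 3 calls held when each cow was left out in turn, with log2 fold changes between -1.38 and -0.84 and adjusted p up to 0.0077. They also held without counting batch B, where the log2 fold change was -0.89 for FGA (adjusted p = 0.017) and -0.97 for FGG (adjusted p = 0.015).

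Between LP and ML no chain was called. The log2 fold change was -0.33 for FGA (SE 0.25), -0.43 for FGB (SE 0.25) and -0.45 for FGG (SE 0.27), with edgeR adjusted p of 0.417, 0.278 and 0.273, where 1721 of 13815 genes (12.5%) were called, 7.41% higher and 5.05% lower at ML. FGA was lower at ML in 9 of 16 cows, FGB in 11 and FGG in 10. Without cow 996 the value for FGB was -0.66 (adjusted p = 0.049), past the threshold, while without cow 426 it was -0.17 (adjusted p = 0.711).

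The study was built to compare Fert+ and Fert- cows, and in liver no chain was called between them at any time-point. At LP FGA had a median of 17336 CPM in Fert+ cows and 13848 in Fert- cows, at EL of 30540 and 25568, and at ML of 14082 and 10595, with overlapping ranges each time. The log2 fold changes of Fert+ against Fert- lay between -0.20 and 0.10 over the chains and time-points, with an SE of 0.31 to 0.37. The lowest edgeR adjusted p was 0.83, and 0 genes were called at any time-point of 12872, 13047 and 13235 tested (0%). At an unadjusted p under 0.05 there were 842, 1530 and 1640 genes. The exact permutation test of 8 against 8 cows on log2(CPM + 1) gave p between 0.450 and 0.993 for the chains. The difference between genotypes did not change detectably with time-point either: the edgeR interaction p was 0.971 for FGA, 0.832 for FGB and 0.974 for FGG before adjustment, and 0 of 13815 genes were called (912 at an unadjusted p under 0.05).

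The chain genes kept close proportions to each other while their level moved. Ratios of read-pair counts within a library are given here as ratios between genes of unknown transcript length, so their size says nothing on the balance of transcripts and only their shifts were compared. The FGB/FGA ratio had a geometric mean of 1.48 at LP, 1.43 at EL and 1.38 at ML, and ran from 1.06 to 1.81 over all 48 libraries. The FGG/FGA ratio had a geometric mean of 1.01 at LP, 1.001 at EL and 0.946 at ML, and ran from 0.839 to 1.201. For FGG/FGB the geometric means were 0.686, 0.701 and 0.687. The level of FGA spanned 6854 to 77505 CPM over the same libraries.

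Of the ratios with FGA in the denominator, FGG/FGA was lower at ML than at both other time-points and FGB/FGA was lower at ML than at LP. FGG/FGA at ML was 0.934 times its LP value (log2 difference -0.10, SD 0.13 over 16 cows, lower in 11 cows) and 0.945 times its EL value (log2 difference -0.08, SD 0.12, lower in 12 cows). FGB/FGA at ML was 0.933 times its LP value (log2 difference -0.10, SD 0.15, lower in 12 cows), while against EL its log2 difference was -0.051 (SD 0.19, lower in 11 cows), with an adjusted p of 0.605 by the exact sign-flip permutation test. The first 3 of these differences passed after adjustment over the 9 ratio tests, with an exact sign-flip permutation p of 0.0074, 0.015 and 0.016 and an adjusted p of 0.048 for all. The calls were fragile: leaving out 1 cow at a time lost the 3 calls in 12, 14 and 14 of 16 fits, and without counting batch B their adjusted p was 0.328. FGG/FGB did not pass in any comparison, with a log2 difference of 0.0011 between ML and LP (SD 0.13, adjusted p = 0.972). From LP to EL no ratio passed, with folds of 0.967 for FGB/FGA, 0.988 for FGG/FGA and 1.02 for FGG/FGB.

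Between genotypes 1 ratio of the 9 tested passed. FGB/FGA at ML had a geometric mean of 1.30 in Fert+ cows, from 1.23 to 1.40, and of 1.45 in Fert- cows, from 1.23 to 1.52. The groups overlapped through cow 426, the lowest Fert- cow with 1.23, and cow 829 with 1.38, while the other 6 Fert- cows lay between 1.48 and 1.52. The log2 difference was -0.16, with an exact permutation p of 0.0048 and an adjusted p of 0.043. Leaving out 1 cow at a time lost this call in 12 of 16 fits, with an adjusted p of up to 0.084, and without counting batch B the difference was -0.18 (adjusted p = 0.079). At LP the same ratio was 1.48 in Fert+ and 1.47 in Fert- cows, with a log2 difference of 0.0034 (adjusted p = 0.955 by the exact permutation test). Neither FGA nor FGB differed between genotypes at ML as a level.

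**Figure D2:**
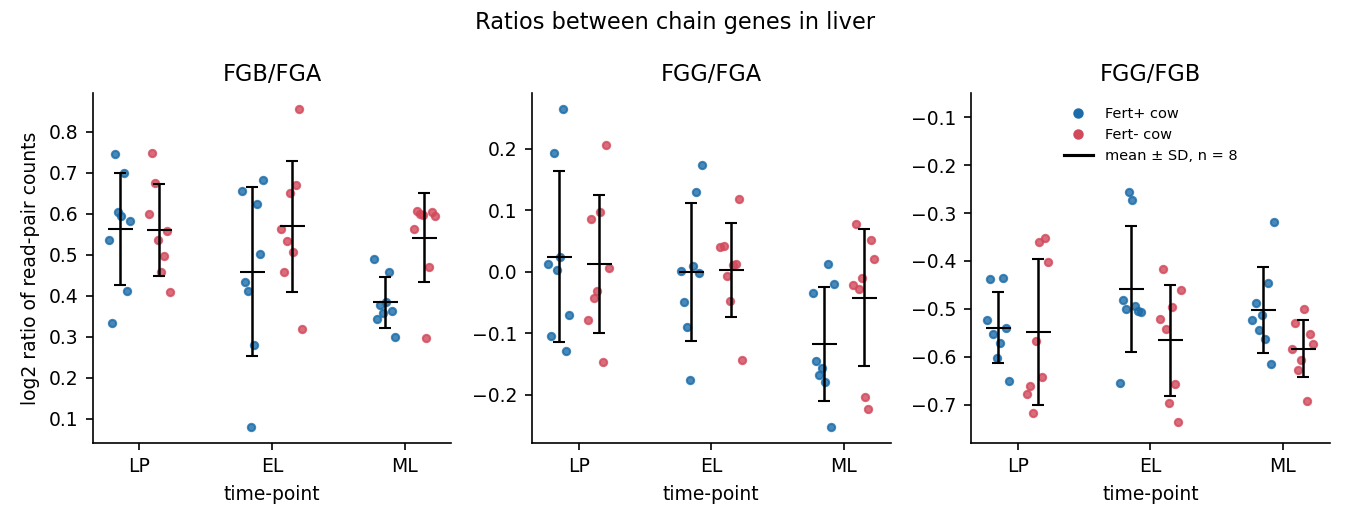
Log2 ratio of read-pair counts of FGB to FGA, FGG to FGA and FGG to FGB on the vertical axis in each liver library at LP, EL and ML. Points are cows coloured by genotype and black marks give the mean and SD of 8 cows, and at ML the Fert+ cows sit lower than most Fert- cows in the FGB/FGA panel.

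Over the 16 cows of a time-point the chains rose and fell together. At LP, EL and ML Pearson's r between log2(CPM + 1) of FGA and FGG came to 0.989, 0.992 and 0.987 (Spearman's rho 0.935, 0.935 and 0.968). For FGA and FGB it was 0.982, 0.967 and 0.982 (rho 0.918, 0.941 and 0.971), and for FGB and FGG 0.990, 0.984 and 0.992 (rho 0.959, 0.982 and 0.991). With 100000 permutations each r had p = 1e-05, the smallest they can give, also after adjustment over the 9 correlations. Leaving out the 2 cows farthest from the median left r between 0.926 and 0.986. The values of a cow at different time-points are not independent, so each time-point was computed by itself, and the chains share a library and its depth.

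The genes whose level was most like the mean of the chains over the 48 liver libraries included acute phase genes and genes of protein secretion. Among the 1872 ranked genes with a symbol, the 10 with the highest Pearson's r of log2(CPM + 1) were LBP (r = 0.911), ITIH4 (0.906), TMED2 (0.891), SERPINA3-6 (0.891), SERPINA3-1 (0.884), SLC39A14 (0.883), CP (0.882), XBP1 (0.855), PDIA3 (0.855) and P4HB (0.849). LBP encodes the lipopolysaccharide-binding protein, ITIH4 an inter-alpha-trypsin inhibitor heavy chain that is an acute phase protein in cattle, CP ceruloplasmin and SLC39A14 a zinc importer. TMED2 encodes a cargo receptor of vesicles between endoplasmic reticulum and Golgi, XBP1 a transcription factor of the unfolded protein response, and PDIA3 and P4HB protein disulphide isomerases, which form the disulphide bonds of secreted proteins. A further 24 genes without a symbol here ranked above the last of these. After group means (genotype by time-point) were subtracted from every gene, CRP (r = 0.893), the gene of C-reactive protein, came first and FGL1 (0.828), the gene of a liver protein with a fibrinogen-like domain, entered the 10 genes, while TMED2 (0.888), LBP (0.882), ITIH4 (0.876), SLC39A14 (0.871), SERPINA3-6 (0.868), SERPINA3-1 (0.841), CP (0.840) and PDIA3 (0.834) stayed among them. These r are descriptions over libraries that share cows, and the SERPINA3 genes are a family of close copies whose read pairs may be split among them.

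Some of the libraries that stood out for the chains also stood out for haptoglobin. HP, the gene of the haemoglobin-binding acute phase protein, reached 41586 CPM in cow 426 and 32622 CPM in cow 430 at LP, where the other 14 cows had at most 1958 CPM. At EL it was 52926 CPM in cow 164 and 51.7 CPM in cow 3434, the cows with the highest and lowest fibrinogen of that time-point. At ML it was 26302 CPM in cow 996 and at most 2537 CPM in the other 15 cows, among them cow 782, which followed cow 996 in FGA. ALB, the gene of albumin, whose synthesis falls in the acute phase, had 9897 CPM in cow 164 at EL and 24961 CPM in cow 430 at LP, the lowest values of those time-points. At ML cow 996 had 70712 CPM of ALB, and the lowest value was 40574 CPM in cow 829. Over the 48 libraries r with the mean of the chains was 0.825 for HP and -0.65 for ALB, and 0.785 and -0.58 after removal of group means.

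**Figure D3:**
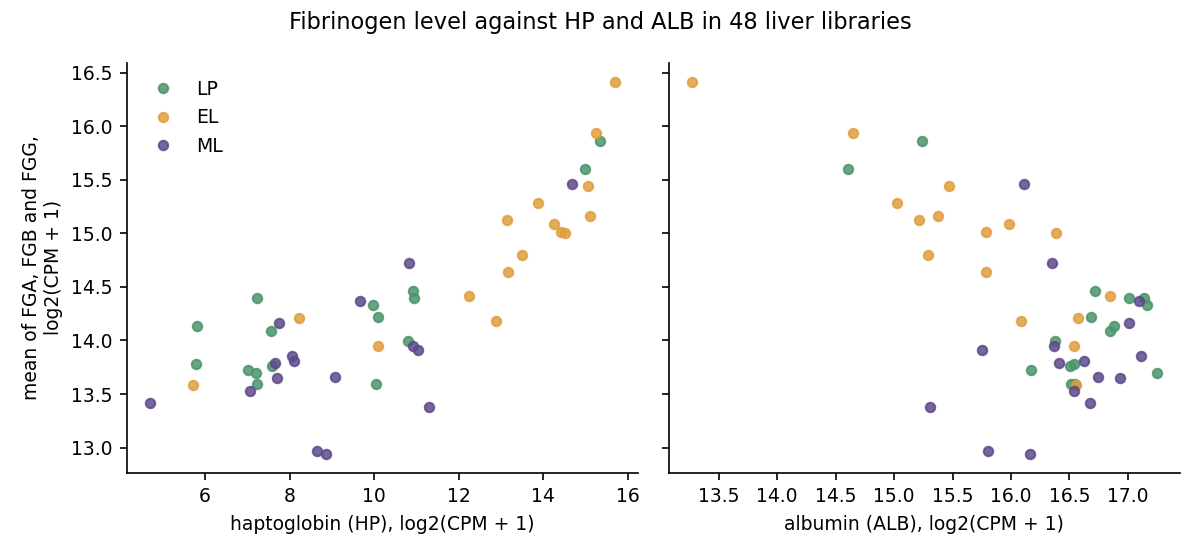
Mean of log2(CPM + 1) of FGA, FGB and FGG on the vertical axis against HP on the left and ALB on the right, both as log2(CPM + 1), in 48 liver libraries coloured by time-point. The libraries highest in fibrinogen hold high HP, and the pooled r is 0.825 for HP and -0.65 for ALB.

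Lists of genes related to fibrinogen were counted in the same liver fits. Here and below, a list gene is said to rise or fall only where its change was called. In EL against LP the median log2 fold change over all genes tested was 0.02, and 3.24% of genes were called. Of the 7 folding and secretion genes of the endoplasmic reticulum that had a symbol and were tested, 5 rose, led by HYOU1 (1.39, SE 0.37), HSP90B1 (1.18, SE 0.28) and CALR (0.70, SE 0.20), chaperones of that compartment, and the list had a median of 0.63. PDIA3 (0.63) and P4HB (0.61) were the others, with edgeR adjusted p of 0.020 to 0.041 over the 5. Of 15 positive acute phase genes 1 was called, LBP (1.71, SE 0.50, adjusted p = 0.048), and the median was 0.38. SAA3 had a larger log2 fold change than LBP, 2.15 (SE 0.79), but was not called (edgeR adjusted p = 0.112). HP had a log2 fold change of 1.75 with an SE of 0.92. SOCS3, the inhibitor of interleukin 6 signalling and the one regulator of the 18 listed that had a symbol, rose by 1.73 on the log2 scale (SE 0.45, adjusted p = 0.029). These calls rest on a comparison in which 5 genes were called without cow 164 and 0 without counting batch B, and the list genes were not examined in the fit with the cow as a block.

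The lists of other clotting genes were counted over calving in liver, where 3.24% of all genes were called and no chain was. The coagulation and fibrinolysis lists of 7 to 10 genes are too short to set against that share. Of 7 coagulation factors tested (F2, F9, F10, F13A1, F13B, KNG1 and VWF) and of 7 coagulation inhibitors, 0 were called in EL against LP, with medians of -0.21 and -0.14. Prothrombin (F2), the precursor of the enzyme that cleaves fibrinogen, had an edgeR adjusted p of 0.997. Of 10 fibrinolysis genes A2M, the gene of a broad protease inhibitor, rose by 1.54 (SE 0.41, adjusted p = 0.030) and VTN, vitronectin, fell by 0.37 (SE 0.10, adjusted p = 0.041). Of the 12 liver plasma protein markers 5 fell, among them TTR (by 0.91), AHSG (by 0.68) and TF (by 0.55), carriers whose synthesis falls in the acute phase, and the list had a median of -0.48.

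From EL to ML, where 38.2% of genes were called, all 7 of the folding and secretion genes tested fell, with a median of -0.92 and HYOU1 lowest at -2.05 (SE 0.37). Of the 15 positive acute phase genes 7 fell, among them HP (-3.27, SE 0.97), SAA3 (-2.84) and LBP (-2.81), and C3 rose by 0.44. Of 7 coagulation factors F2 fell by 0.43 (SE 0.09, adjusted p = 0.00053) while KNG1 and VWF rose by 0.50 and 0.75, and of 7 inhibitors 0 were called. Among the fibrinolysis genes A2M (-2.33) and SERPINF2 (-0.49), the gene of the plasmin inhibitor, fell, and HRG (0.92), PLAU (0.64), PLAT (0.59) and VTN (0.26) rose. Among genes with a fibrinogen-like domain TNC (-2.24), ANGPTL4 (-2.01) and FGL1 (-0.54) fell. Of the 12 liver markers 6 rose and APOA1 fell, and SOCS3 fell by 2.05. The list medians were -0.06 for factors, -0.03 for inhibitors, -0.26 for fibrinolysis and -0.53 for acute phase genes, beside -0.01 over all genes. In ML against LP 12.5% of all genes were called, 7.41% higher and 5.05% lower. There the folding list had 2 of 7 genes called, SEC24D (-0.89) and SAR1B (-0.37), both lower, and the acute phase list 0 of 15. Of the factors F2 (-0.43) and F10 (-0.41) were lower, of the inhibitors PROC (-0.34) and of the fibrinogen-like genes ANGPTL4 (-1.78). Of the fibrinolysis genes PLAU (0.46) was higher.

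Genes listed as markers of other cell types moved at the same time-points, and the cells their transcripts came from were not measured. Of 4 neutrophil markers 3 rose in liver in EL against LP, S100A9 (2.80), S100A8 (2.72) and S100A12 (2.11), where 2.27% of all genes were called higher. From EL to ML S100A9 (-3.06), S100A8 (-2.87) and S100A12 (-2.08) fell, and the remaining marker, LTF (0.75), rose. The list summed to 10.2 to 40.5 CPM at LP, 13.1 to 332 CPM at EL and 16.5 to 178 CPM at ML. All 4 stromal markers, 3 of 5 Kupffer cell and macrophage markers and 2 of 3 cholangiocyte markers rose from EL to ML. In that comparison 18.1% of all genes were called higher and 20.2% lower. Erythroid, platelet and adipocyte markers had medians of at most 2.62 CPM summed at every time-point in liver. In liver none of the neutrophil, stromal, macrophage or cholangiocyte markers with a symbol was at 0 in all libraries of a time-point, and their part in the fibrinogen values was not tested.

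In muscle the chain genes were traces. At LP FGA had 27 read pairs in all 16 libraries together, FGG had 38 and FGB had 310, out of 291886377. FGA was at 0 in 8 libraries and FGG in 7, where a count of 0 allows up to 0.14 to 0.196 CPM by library (3 counts). At EL the sums were 161 for FGA, 152 for FGG and 560 for FGB, and at ML they were 1029, 1102 and 2291. As levels, FGA had a mean of 0.0964 CPM (SD 0.20, n = 16) at LP, 0.463 CPM (SD 0.89) at EL and 3.90 CPM (SD 7.69) at ML.

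The rise at ML came with a few libraries. Cow 996 (Fert-) had 527 read pairs of FGA, 935 of FGB and 567 of FGG in its ML muscle library. Cow 1179 (Fert-) had 161, 313 and 179, cow 33 (Fert+) had 131, 314 and 137, cow 1000 (Fert-) had 74, 191 and 70, and cow 3445 (Fert+) had 55, 118 and 53. The other 11 ML libraries held 0 to 28 read pairs of FGA and 17 to 72 of FGB. Before ML, FGA was above 50 read pairs in 1 library, that of cow 996 at EL, with 72 of FGA, 130 of FGB and 61 of FGG.

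**Figure D4:**
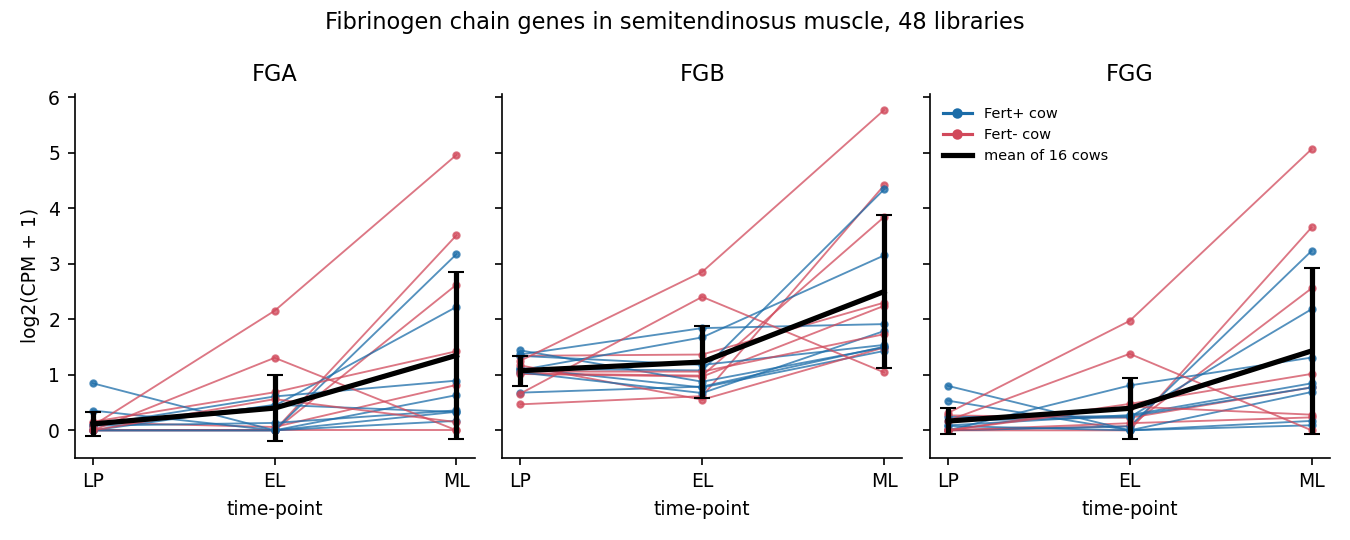
Level of FGA, FGB and FGG in muscle as log2(CPM + 1) on the vertical axis at LP, EL and ML, with 1 line per cow coloured by genotype, and the mean of 16 cows with its SD in black. FGA and FGG lie near 0 at LP, FGB lies near 1, and a handful of cows rise well above the rest at ML.

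FGB differed from its partners at the low end. In the 17 muscle libraries with 0 read pairs of FGA, FGG had 0 to 3 read pairs while FGB had 7 to 31, with a median of 17. Over the 48 libraries a straight line of FGB counts on FGA counts had an intercept of 20.9 read pairs and a slope of 1.77, and without the ML library of cow 996 they were 18.3 and 1.98. The line of FGG on FGA had an intercept of -0.21 and a slope of 1.07. FGB had at least 7 read pairs in every muscle library. The kit does not keep strand, so read pairs from an antisense transcript cannot be told apart from those of the gene.

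All 3 chains were higher in muscle at ML than at LP. The log2 fold change was 5.26 for FGA (SE 0.92, edgeR adjusted p = 0.00029), 2.79 for FGB (SE 0.46, adjusted p = 0.00014) and 4.77 for FGG (SE 0.82, adjusted p = 0.00023), where 771 of 12675 genes (6.08%) were called and 312 of them were higher (2.46%). The low counts of FGA and FGG passed the filter through their ML libraries. FGB was higher at ML in 16 of 16 cows, with the smallest p the exact sign-flip permutation test can give at this size, 3.1e-05. FGA was higher in 12 cows, lower in 2 and at 0 both times in 2 (exact sign-flip p = 0.0023), and FGG was higher in 13 and lower in 3 (p = 0.0023). On log2(CPM + 1), which shrinks changes near 0, the mean within-cow rise was 1.24 for FGA (SD 1.57), 1.43 for FGB (SD 1.43) and 1.26 for FGG (SD 1.56).

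The calls held with each cow left out in turn. FGA had a log2 fold change of 4.65 to 5.93, FGB of 2.36 to 2.90 and FGG of 4.22 to 5.19, with edgeR adjusted p up to 0.0023. For FGA and FGG, which passed the filter through the ML libraries in which they are high, this adds no support to the calls. The fold changes were the means of unlike cows, since the 5 cows named above held 948 of the 1029 FGA read pairs of ML.

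From EL to ML the chains were higher too, with log2 fold changes of 3.13 (SE 0.73), 2.30 (SE 0.44) and 3.29 (SE 0.70) for FGA, FGB and FGG. The edgeR adjusted p were 0.00032, 2.1e-05 and 9.7e-05, but 7533 of 12675 genes (59.4%) were called in that comparison, 28.5% higher at ML. FGA and FGG passed the filter of this fit through the ML libraries in which they are high, so their calls here are no further support. From LP to EL the log2 fold changes of FGA, FGB and FGG were 2.13 (SE 1.14), 0.49 (SE 0.47) and 1.48 (SE 1.001). Their adjusted p were 0.113, 0.392 and 0.211, where 6828 genes (53.9%) were called. From EL to ML the chains fell in liver and rose in muscle, and the difference between tissues was not tested.

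The chains did not rise alone in these muscle libraries. In ML against LP 7 of the 12 liver plasma protein markers could be tested and 5 rose, TF (5.46), ALB (5.29), SERPINA1 (5.16), AMBP (3.705) and TTR (3.21), with a list median of 3.705 beside 0.01 over all genes. TF, SERPINA1, TTR, AMBP and ALB had medians of 1, 1, 2, 3 and 7.5 read pairs at LP. These 5 markers therefore passed the filter through the libraries in which they are high, and neither the count nor the median supports the result on the chains. APOA1 (0.14) and RBP4 (0.61) were not called, and both had read pairs in every muscle library. The other 5 markers, APOA2, APOB, APOC3, APOH and AHSG, did not pass the filter on low counts. VTN (5.72) of the fibrinolysis list and AGP (5.10), CFB (1.62) and C3 (1.53) of the acute phase list also rose. AGP was at 0 in 10 of the 16 LP libraries, and neither AGP nor VTN passed the filter in the genotype comparison at LP. AGP and VTN too passed here through the libraries in which they are high, and they do not support the result on the chains. None of the coagulation factors, inhibitors, folding genes, neutrophil, macrophage, stromal or adipocyte markers that were tested was called. Of the factors only F13A1 and VWF were tested, and of the inhibitors only SERPINA5, PROS1 and SERPING1. F2, F9, F10, F13B, KNG1, SERPINC1, SERPIND1, SERPINA10 and PROC did not pass the filter on low counts, so whether they rose is not known.

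Leaving out APOA1 and RBP4, a choice made after their values were seen, 10 liver markers were compared with the same cow's liver. In the ML muscle library of cow 996 FGA stood at 771, FGB at 906 and FGG at 818 millionths of the level in its ML liver library, and the 10 markers stood at 522 to 3260 millionths with a median of 1176. In cow 1179 the chains stood at 943, 1205 and 994 millionths and the markers at a median of 1150. In cow 33 the chains stood at 818, 1397 and 876 and the markers at a median of 1839. In cow 982, whose ML muscle library had 0 read pairs of FGA and of FGG, 9 of the 10 markers were at 0 as well, and FGB had 17 read pairs. The order was not the same throughout, since cow 996 had 527 read pairs of FGA with 99.9 CPM of the 10 markers summed, and cow 33 had 131 with 176 CPM. Cow 3434 had 4 read pairs of FGA with 11.97 CPM of the markers. The relation was not tested.

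The ratio of FGA to ALB was compared between tissues of a cow. Read pairs of FGA per read pair of ALB were 0.578 in muscle and 0.553 in liver of cow 996 at ML, 0.0975 and 0.101 in cow 1179, 0.0728 and 0.0939 in cow 33, 0.0987 and 0.134 in cow 1000, and 0.0874 and 0.0980 in cow 3445. In other libraries the ratios lay apart, as in cow 3434 at ML with 0.0310 in muscle and 0.133 in liver, and in cow 426 at EL with 1.17 and 0.173, the former from 129 and the latter from 12 read pairs of ALB in muscle. Cow 996, with the highest FGA and HP of the ML liver libraries, also had 472 read pairs of HP in its ML muscle library, where the other 15 cows had 1 to 11. The libraries of these 5 cows at ML were all outside counting batch B. The skeletal muscle markers summed to 221883 to 304332 CPM in the ML muscle libraries. What part liver RNA in the muscle samples or libraries has in these values was not tested.

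**Figure D5:**
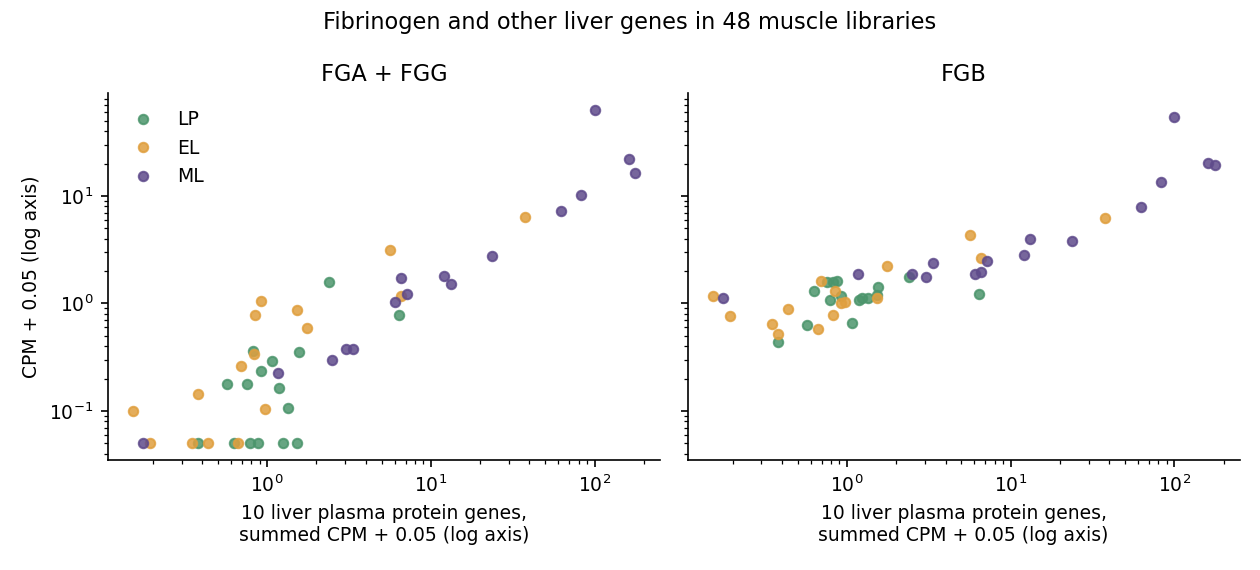
Summed CPM of FGA and FGG on the left and CPM of FGB on the right, on log axes after adding 0.05, against the summed CPM of 10 liver plasma protein genes in 48 muscle libraries coloured by time-point. The highest values of all 3 chains lie at the right, and FGB stays near 1 CPM where FGA and FGG are near 0.

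Between genotypes the chains in muscle were not called by the quasi-likelihood test. At ML the log2 fold change of Fert+ against Fert- was -1.77 for FGA (SE 1.16), -1.33 for FGB (SE 0.85) and -1.69 for FGG (SE 1.12), with edgeR adjusted p of 0.745, 0.741 and 0.751, and 0 of 12001 genes (0%) were called (918 at an unadjusted p under 0.05). The exact permutation test on log2(CPM + 1) gave p = 0.392, 0.320 and 0.502. FGA ran from 2 to 131 read pairs in Fert+ cows and from 0 to 527 in Fert- cows. An exact test of edgeR that gives every gene the same dispersion called all 3 chains, with adjusted p of 1.5e-20, 1.9e-14 and 3.0e-19, among 214 genes (1.78%). Without cow 996 the quasi-likelihood log2 fold changes were -0.53, -0.41 and -0.40, and without cow 33 they were -2.81, -2.11 and -2.61. At LP and EL FGA and FGG did not pass the filter on low counts, and FGB had log2 fold changes of 0.25 (SE 0.26) and -0.68 (SE 0.52), neither called, where 0 of 11954 genes (0%) and 1 of 12035 genes (0.00831%) were called. The edgeR interaction of genotype and time-point in muscle had p of 0.194, 0.228 and 0.202 for the chains, with 0 of 12675 genes called after adjustment (857 at an unadjusted p under 0.05) and 13 by DESeq2.

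No correlation between the chain levels of a cow's liver and muscle passed the test. Over 16 cows Pearson's r of log2(CPM + 1) for FGA came to 0.515, -0.38 and 0.416 at LP, EL and ML (Spearman's rho 0.309, -0.30 and 0.277), with permutation p of 0.072, 0.153 and 0.109. For FGG r was 0.300, -0.43 and 0.497 (rho 0.0583, -0.44 and 0.247), with p of 0.249, 0.0997 and 0.0512, and for FGB it was 0.244, -0.34 and 0.452 (rho 0.162, -0.33 and 0.156), with p of 0.369, 0.204 and 0.080. The lowest adjusted p over the 9 correlations was 0.197. Without the 2 cows farthest from the median in liver, r for FGA was -0.19 at LP and 0.0262 at ML.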

How the data were processed

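Counts of 96 biopsy libraries were analysed. Per the labels and the study's methods, the authors made polyA libraries with the TruSeq v2 kit, aligned read pairs to bovine UMD3.1 with STAR and counted pairs per gene with featureCounts; the deposited values are raw counts, with no normalization. The 96 unnamed columns of 2 tables of the whole series, and the authors' own comparisons, were not used. Symbols came from the study's supplementary tables (2141 of 24616 IDs), so list counts cover those genes. ORM1 is listed as AGP.

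Each time comparison was fitted over the 48 libraries of a tissue, each genotype comparison over 16, with edgeR 4.0.16 (R 4.3.3): TMM, filterByExpr (minimum count 10), robust quasi-likelihood F tests, two-sided, Benjamini-Hochberg adjustment over all genes tested, threshold 0.05; SE is |log2 fold change|/√F. Single values used exact permutation tests over cows, correlations 100000 permutations (Python). Scripts were tested on simulated data. Replicate numbers are cow numbers, so libraries of a cow are paired: after removal of group means, same-cow libraries correlated at a median of 0.235 in liver and 0.258 in muscle, those of other cows at -0.04 and -0.03. No 2 libraries of a group agreed within sampling noise over 336 pairs. Counting batch B is 13 libraries with at least 50 read pairs of 11 or more of 19 genes that have a median of at most 2. Alternatives were RLE factors, no gene filter, DESeq2 1.42.0, the cow as a block, batch as a term or batch B left out, a common-dispersion exact test, and leaving out each cow.

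The genes and lists were chosen with earlier results of these data known. Named were the 3 chains, up to 3 genes per list that rose and 3 that fell most in liver EL against LP, those needed to account for small counts, the 10 most alike, and markers beside a result. Of list genes named in ML against EL and ML against LP, some were chosen after their values were seen. Some results on list genes are not reported here.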

Additional observations from a re-analysis of the deposited data

Results flagged for a closer look

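In 54 groups of 8 cows (a chain level in a tissue, or a ratio between chains in liver, at 1 time-point in 1 genotype) 9 values stood apart from the rest by Dixon's test, where chance gives about 1 in 20 groups. The levels of the 3 chains share a library, so their flags are not separate events.

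At LP in liver, cow 430 was the highest of the Fert+ cows for FGA (log2(CPM + 1) of 15.28), FGB (15.98) and FGG (15.55). Cow 426 was the highest of the Fert- cows for FGA (15.68), FGB (16.14) and FGG (15.77). The same libraries held 32622 and 41586 CPM of HP, where the other 14 LP libraries had at most 1958 CPM.

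At ML in liver, the log2 ratio of FGB to FGA of cow 426 was the lowest of the Fert- cows at 0.30.

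In muscle, cow 430 was the highest of the Fert+ cows for FGA at LP (log2(CPM + 1) of 0.85, from 14 read pairs), and cow 3434 was the highest of the Fert+ cows for FGG at EL (0.81, from 16 read pairs).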

How the results depend on the processing

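RLE factors, the replicate block and the 0.5 offset turned no direction and lost no call of the chains. With the cow as a replicate block the log2 fold change of FGA in liver was -1.05 for ML against EL, and 332 genes were called in EL against LP, 144 higher and 188 lower. In liver EL against LP 297 genes were called without a gene filter, 271 with batch as a term and 0 without batch B, and 5 to 1086 with each cow left out. There FGA ran from 0.49 to 0.96, FGB from 0.46 to 0.90 and FGG from 0.44 to 0.93. In ML against LP 1012 to 2095 genes were called with each cow left out, and FGB ran from -0.66 to -0.17. The interaction had 0 to 1 genes called in liver and 0 to 5 in muscle with each cow left out, and 13 in muscle by DESeq2.

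Between genotypes in liver, the common-dispersion exact test called 306 genes at LP, 301 at EL and 279 at ML, and DESeq2 2, 13 and 76. Leaving out each cow, the chains changed sign: at LP FGA ran from -0.21 to 0.48, FGB from -0.18 to 0.50 and FGG from -0.25 to 0.54. At EL they ran from -0.26 to 0.30, -0.36 to 0.13 and -0.26 to 0.29, and at ML from -0.074 to 0.48, -0.24 to 0.30 and -0.19 to 0.41. FGG at ML was 0.0024 without a gene filter and 0.039 with batch as a term. In muscle the exact test called 214, 438 and 214 genes and DESeq2 28, 134 and 13. At EL 0 genes were called with batch as a term and 0 without batch B. With each cow left out 0 to 4, 0 to 7 and 0 to 2 were called. The muscle ML chains were -1.76, -1.33 and -1.68 in the exact test, all called.

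Without batch B the log2 ratio differences that had passed were -0.092 (FGB/FGA, ML against LP), -0.069 (FGG/FGA, ML against EL), -0.079 (FGG/FGA, ML against LP) and -0.18 (FGB/FGA between genotypes at ML), none past the threshold. With each cow left out they ran from -0.12 to -0.082, -0.098 to -0.070, -0.11 to -0.081 and -0.19 to -0.15. Differences near 0 changed sign: FGG/FGA in EL against LP (-0.034 to 0.00070), FGG/FGB in ML against LP (-0.021 to 0.014), and, between genotypes, FGB/FGA at LP (-0.022 to 0.036), FGG/FGA at LP (-0.022 to 0.040) and EL (-0.029 to 0.021) and FGG/FGB at LP (-0.016 to 0.037). The cause of these changes was not tested. Traces in muscle are limited by depth, since a count of 0 allows up to 0.196 CPM at LP.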

Other observations

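The genes at the other end of the ranking over the 48 liver libraries were chosen after their values were seen. The lowest Pearson's r with the mean of the chains was that of FADS2 (-0.83), the fatty acid desaturase, followed by TTR (-0.77), the gene of transthyretin, DIRAS3 (-0.73), a small GTPase gene, CA3 (-0.73), a carbonic anhydrase, SCP2 (-0.73), a sterol carrier, and ACSS2 (-0.72), an acetyl-CoA synthetase. After group means were subtracted FADS2 (-0.76) and TTR (-0.69) stayed lowest among genes with a symbol, followed by HRG (-0.66) and SCP2 (-0.64). These are descriptions over libraries that share cows and depth.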
